A study of Mus musculus with 2 samples.

Results

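The kinases that phosphorylate eIF2alpha and the transcription factors and effectors downstream of them were examined in CT26 cells, a mouse colon carcinoma line. The set was defined by gene symbol and held 10 of the 54680 loci in the expression table: the kinases Eif2ak1, Eif2ak2, Eif2ak3 and Eif2ak4, the transcription factors Atf4, Atf3 and Ddit3, and the downstream effectors Ppp1r15a, Trib3 and Chac1. All 10 were found, and 9 reached 1 FPKM in at least 1 library. FPKM is the count of fragments scaled by gene model length and by sequencing depth. As a level per length it lets levels of different genes be compared within a library. The depth used here was common to both libraries, so FPKM ratios between them carry the 1.03 ratio of their read totals.

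The knockdown group (shSetdb1) carried lentiviral short hairpin RNA against Setdb1, a histone H3 lysine methyltransferase gene, and the control group (shCtrl) carried the empty vector on a wild-type background. Both groups were CT26 cells in RPMI 1640 with serum, collected on day 6, when the knockdown cells had changed in phenotype. Each group had 1 library, so no difference below has a replicate check, and the values describe these libraries. The labels do not say whether the cells of a group came from a single clone.

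The integrated stress response joins several kinds of stress at a single step. Eif2ak1 (HRI, sensitive to haem and mitochondrial stress), Eif2ak2 (PKR, activated by double-stranded RNA and induced by interferon), Eif2ak3 (PERK, a sensor of the endoplasmic reticulum) and Eif2ak4 (GCN2, activated by amino acid shortage) each phosphorylate eIF2alpha, which lowers translation in general and favours that of Atf4. ATF4 then activates genes of amino acid supply, the transcription factor CHOP (Ddit3), the phosphatase subunit GADD34 (Ppp1r15a) that reverses the phosphorylation, the pseudokinase gene Trib3 and the glutathione-degrading enzyme gene Chac1. Phosphorylation and translation were not measured here: all values are RNA levels.

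Promoter letters of the members the results turn on are shown first, because the same motifs come back beside the values. RefSeq promoter windows in GRCm38.p6, 250 bases before to 50 bases after each start site, were found for all 10 genes. Both strands were searched for TGATGNAA, the C/EBP-ATF composite element that ATF4 can bind, for TGACGTCA, the cyclic AMP response element, and for GAAANNGAAA, the core of the interferon-stimulated response element. In the lines below each sequence runs 5′ to 3′ on the gene's strand and the capitals mark the match. The stretch of Chac1 is chr2:119351023-119351082 (plus strand), that of Trib3 chr2:152344028-152344057 (minus strand), that of Atf3 chr1:191183410-191183469 (minus strand), that of Ppp1r15a chr7:45526269-45526328 (minus strand) and that of Eif2ak2 chr17:78882535-78882564 (minus strand).
Chac1: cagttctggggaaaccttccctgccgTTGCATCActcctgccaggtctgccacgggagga
Trib3: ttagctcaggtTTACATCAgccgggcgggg
Atf3: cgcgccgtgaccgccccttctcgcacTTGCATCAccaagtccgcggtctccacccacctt
Ppp1r15a: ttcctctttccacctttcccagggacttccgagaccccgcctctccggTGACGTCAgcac
Eif2ak2: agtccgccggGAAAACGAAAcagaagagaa

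The composite element was thus present, as its reverse complement, in Chac1 (193 bases before the start site), Trib3 (15 bases after it) and Atf3 (110 bases before it). The promoter windows of 4.51% of 27025 genes held it. The cyclic AMP response element in Ppp1r15a began 12 bases before the start site, and 2.03% of genes held that motif. Ppp1r15a also held a match to the interferon element further upstream. The interferon element in Eif2ak2 began 19 bases after the start site, and 3.99% of genes held it. In the windows of Atf4, Ddit3, Eif2ak1, Eif2ak3 and Eif2ak4 none of these letters was found, which says nothing of sites elsewhere.

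The libraries held 18421604 reads (shCtrl) and 19045830 reads (shSetdb1), recovered as whole numbers from the FPKM values. Ratios are log2 ratios of (FPKM + 1), shSetdb1 over shCtrl, and a gene is said to have risen or fallen when the ratio reached 2-fold. Read ratios are relative to each library's own total and carry 95% exact (Clopper-Pearson) intervals that cover counting error only. Setdb1 itself went from 10.4 to 2.47 FPKM, a log2 ratio of -1.72. Of the markers of the labelled origin, Epcam, Cdh1, Cdx1 and Lgr5 had 0 reads in both libraries, and the 10 epithelial and intestinal markers summed to 43.2 FPKM in shCtrl and 128 FPKM in shSetdb1, mainly Krt18 and Krt20. The 5 mesenchymal markers summed to 1172 and 1399 FPKM. The 8 immune, endothelial and red cell markers had 5 reads in shCtrl and 21 in shSetdb1. The part of the rise in keratins in the results below was not tested. In bulk RNA, fewer cells of a type and less RNA per cell cannot be told apart.

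Among the 10671 genes that reached 1 FPKM in either library, 4.85% fell and 6.81% rose by 2-fold, together 11.7%. Of the 9 stress response genes at that level, 5 fell (Atf4, Ddit3, Ppp1r15a, Trib3 and Chac1), 1 rose (Eif2ak2), and Eif2ak1, Eif2ak3 and Eif2ak4 stayed within 2-fold. Their median log2 ratio was -1.06, beside -0.00039 for all genes. The division followed the roles: the 5 genes that fell were the 5 measured members downstream of the kinases. Their reads together made up 0.281% of the shCtrl library and 0.0819% of the shSetdb1 library, while the reads of the 4 kinases made up 0.0112% and 0.0125%.

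**Figure D1:**
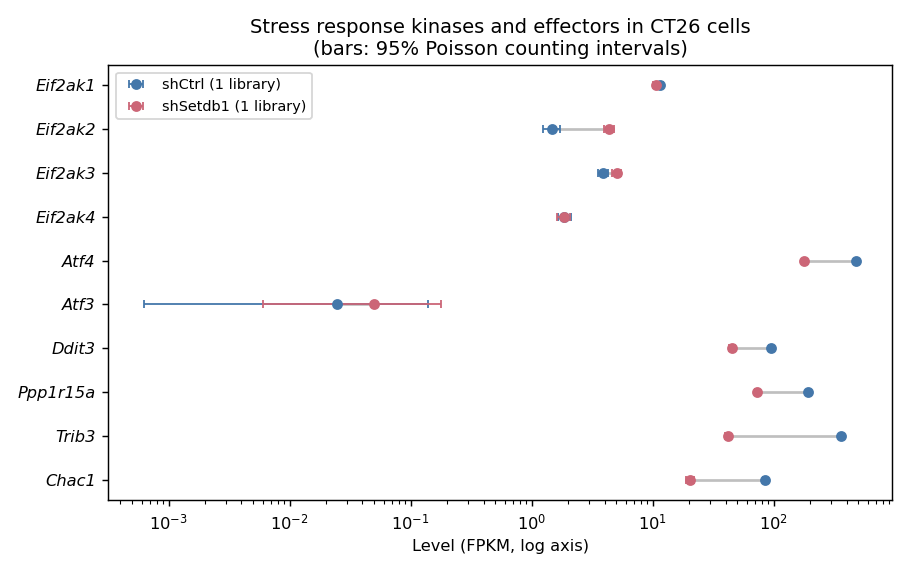
Level of each kinase and effector gene (FPKM, log axis) in the shCtrl library (blue) and the shSetdb1 library (red), with 95% Poisson counting intervals. The 5 effectors Atf4, Ddit3, Ppp1r15a, Trib3 and Chac1 lie lower in shSetdb1, Eif2ak2 lies higher, and Atf3 rests on 1 and 2 reads.

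Eif2ak2 (ENSMUSG00000024079, chromosome 17, minus strand, 78852564 to 78882573 in GRCm38) had 1.46 FPKM (140 reads) in shCtrl and 4.35 FPKM (417 reads) in shSetdb1. This is a log2 ratio of 1.12, with a read ratio of 2.88 (2.37 to 3.51). The counting interval of the log2 ratio was 0.935 to 1.30, so on this scale the rise lay at the edge of the 2-fold threshold. Eif2ak2 was the lowest of the 4 kinases in shCtrl. At this low level the pseudocount matters: with 0.1 FPKM in place of 1 the log2 ratio was 1.51. In all, 577 genes had a ratio as high or higher.

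Eif2ak1 (chromosome 5, 143817788 to 143904251) had 11.6 FPKM in shCtrl and 10.7 FPKM in shSetdb1, which made it the highest kinase RNA in both libraries. The read ratio was 0.889 (0.820 to 0.965). Its annotated model overlaps Aimp2 on the opposite strand, which had 1666 and 1770 reads against 1231 and 1132 for Eif2ak1. Eif2ak3 (chromosome 6, 70844515 to 70905245) had 3.88 and 5.02 FPKM, a read ratio of 1.25 (1.10 to 1.42). The interval for Eif2ak3 lay above 1, but the log2 ratio of 0.30 was well inside 2-fold. Eif2ak4 (chromosome 2, 118388618 to 118475234) had 1.86 and 1.83 FPKM, and its read ratio of 0.952 (0.798 to 1.14) included no change.

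The order of the kinases differed between the libraries. In shCtrl it was Eif2ak1, Eif2ak3, Eif2ak4 and Eif2ak2, and the counting intervals of Eif2ak4 and Eif2ak2 overlapped. In shSetdb1 it was Eif2ak1, Eif2ak3, Eif2ak2 and Eif2ak4, and those of Eif2ak3 and Eif2ak2 overlapped. The level of Eif2ak2 was 0.785 times that of Eif2ak4 in shCtrl and 2.38 times in shSetdb1. Summed over the 4 kinases, the level was 18.8 FPKM in shCtrl and 21.9 FPKM in shSetdb1.

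Eif2ak2 was set beside 23 other double-stranded RNA sensors and interferon-stimulated genes. Of these, 21 reached 1 FPKM and all 21 had a ratio above 0. In all, 19 of the 21 rose, beside 6.81% of all genes, with a median log2 ratio of 2.73. Ifih1 (MDA5, a sensor of long double-stranded RNA) had the smallest ratio at 0.71, and the RNA-editing enzyme gene Adar was at 1.33. Eif2ak2 at 1.12 thus lay between Ifih1 and Adar, near the low end of the list. The highest ratio was that of Irf7, a transcription factor that amplifies interferon signalling, at 4.91. Of the 16 genes of the list with a promoter window, 11 held the interferon element printed above for Eif2ak2. Interferon-stimulated genes are often recognised by that element, so this share is not independent of the choice of genes.

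Atf4 (ENSMUSG00000042406, chromosome 15, plus strand, 80255184 to 80257541) was the most abundant member in both libraries. It had 479 FPKM (21170 reads) in shCtrl and 178 FPKM (7858 reads) in shSetdb1, so that 37.1% of the control level was left. This is a log2 ratio of -1.42, with a read ratio of 0.359 (0.350 to 0.368). Only 175 of the 10671 genes, Atf4 included, had a ratio as low.

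Ddit3 (ENSMUSG00000025408, chromosome 10, plus strand, 127290774 to 127296288), which encodes the pro-apoptotic factor CHOP, had 94.7 FPKM (3039 reads) in shCtrl and 45.1 FPKM (1446 reads) in shSetdb1. Its fall was the smallest of the 5, with a log2 ratio of -1.06 whose counting interval reached -0.97, so it lay at the edge of the 2-fold threshold. The read ratio was 0.460 (0.432 to 0.490). The gene overlaps the methionyl-tRNA synthetase gene Mars on the opposite strand, which had 6701 and 4085 reads, and how reads in the overlap were counted is not given in the sources used here. A second locus with the symbol Ddit3 had no reads.

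Atf3, a stress-induced partner of ATF4 and CHOP (chromosome 1, minus strand, 191170296 to 191218039), was close to absent, with 1 read in shCtrl and 2 reads in shSetdb1. The upper counting limits were 0.138 and 0.179 FPKM, and no fold is given because both counts are under the floor of 3 reads. Its promoter window holds the same 8 letters as that of Chac1, TTGCATCA, and Chac1 RNA was abundant in both libraries while Atf3 RNA was not. The 2 windows are placed differently. That of Atf3 (191183284 to 191183583) lies inside the counted gene model, away from its 5′ end at 191218039. The window of Chac1 spans the 5′ end of its model.

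Ppp1r15a (ENSMUSG00000040435, chromosome 7, minus strand, 45522916 to 45526268) had 191 FPKM (10534 reads) in shCtrl and 72.9 FPKM (4012 reads) in shSetdb1. Its log2 ratio of -1.38 was close to that of Atf4, and its level stayed at 39.9% of the Atf4 level in shCtrl and 41.0% in shSetdb1. Its constitutive counterpart Ppp1r15b (CReP), which also directs protein phosphatase 1 to eIF2alpha, had 36.0 and 19.4 FPKM, a log2 ratio of -0.86 that stayed short of 2-fold. Of the catalytic subunits they recruit, Ppp1ca had 561 and 645 FPKM, Ppp1cc 55.1 and 62.4 FPKM, and Ppp1cb, the least abundant, 2.67 and 1.77 FPKM (log2 ratio -0.41).

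Trib3 (ENSMUSG00000032715, chromosome 2, minus strand, 152337422 to 152344032) fell furthest. It had 362 FPKM (14423 reads) in shCtrl and 41.6 FPKM (1656 reads) in shSetdb1, a log2 ratio of -3.09. Relative to the library totals, its read ratio was 0.111 (0.105 to 0.117). Only 14 genes, Trib3 included, had a ratio as low. In shCtrl its level was 75.6% of that of Atf4, second among the members, and in shSetdb1 it was 23.4%, with a counting interval that overlapped that of Ddit3.

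Chac1 (ENSMUSG00000027313, chromosome 2, plus strand, 119351229 to 119354381) had 84.8 FPKM (2599 reads) in shCtrl and 20.4 FPKM (626 reads) in shSetdb1. This is a log2 ratio of -2.00, its read ratio was 0.233 (0.213 to 0.254), and 55 genes, Chac1 included, had a ratio as low. Chac1 stood at 89.5% of the Ddit3 level in shCtrl and at 45.3% in shSetdb1. The counting intervals of the log2 ratios of Trib3, Chac1 and Ddit3 did not overlap each other, so the 3 falls differed by more than counting error.

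**Figure D2:**
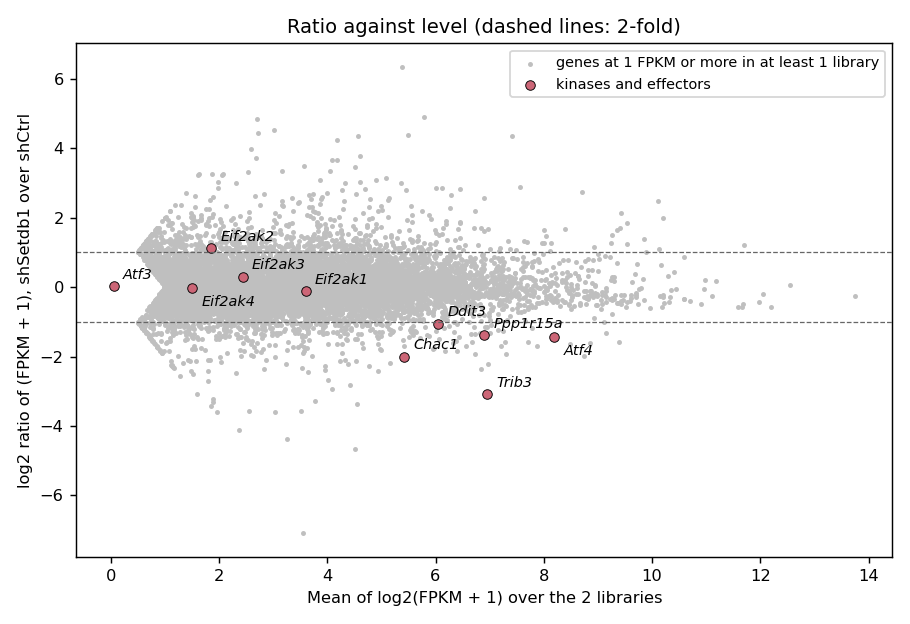
Log2 ratio of (FPKM + 1), shSetdb1 over shCtrl, against the mean of log2(FPKM + 1) over the 2 libraries, for the 10671 genes that reached 1 FPKM in either library (grey) and the 10 kinase and effector genes (red). Atf4, Ddit3, Ppp1r15a, Chac1 and Trib3 lie below the lower 2-fold line and Eif2ak2 above the upper line.

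The substrate and its exchange factor moved less than the effectors. None of the 8 genes for eIF2 and eIF2B subunits changed by 2-fold, beside 11.7% of all genes. Of the 8, 6 had a ratio below 0, and the median was -0.38. Eif2s2, the beta subunit of eIF2, was lowest, with 7.11 FPKM in shCtrl and 3.72 FPKM in shSetdb1 (log2 ratio -0.78). Eif2s1, which encodes eIF2alpha itself, had 10.4 and 7.28 FPKM (-0.46), and Eif2b4, the subunit gene with the highest ratio, 11.5 and 14.9 FPKM (0.35).

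Of 12 regulators of the kinases and of eIF2alpha dephosphorylation, 1 fell and none rose, beside 4.85% and 6.81% of all genes. The median log2 ratio was -0.35. The gene that fell was Impact, which encodes an inhibitor of GCN2 activation, with 10.7 FPKM (685 reads) in shCtrl and 4.12 FPKM (265 reads) in shSetdb1 (log2 ratio -1.19). Gcn1l1, whose product GCN1 activates GCN2, had 29.5 and 21.9 FPKM (-0.41). Prkra, whose product PACT activates PKR, had the highest ratio of the list at 0.42. Oma1 and Dele1, which carry mitochondrial stress to HRI, had ratios of -0.46 and -0.43.

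The ATF4 targets of amino acid supply fell with the effectors. Of 21 genes, 18 reached 1 FPKM and all 18 had a ratio below 0. Of the 18, 16 fell, beside 4.85% of all genes, with a median log2 ratio of -1.78. The list was drawn up with earlier results of these data known, so its direction is a description. Its reads made up 1.10% of the shCtrl library and 0.318% of the shSetdb1 library.

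Among the 9 transporter genes 8 were measured and 7 fell, beside 4.85% of all genes. The glycine transporter gene Slc6a9 had the lowest ratio of the list, with 41.7 FPKM (4019 reads) in shCtrl and 3.35 FPKM (323 reads) in shSetdb1 (log2 ratio -3.29), lower than that of Trib3. Slc7a5, the light chain of the large neutral amino acid exchanger, had 267 and 57.1 FPKM (-2.21), while its heavy chain partner Slc3a2 had 204 and 80.4 FPKM (-1.33). Slc38a2 and Slc1a4, which carry small neutral amino acids, had ratios of -2.18 and -2.14. The cystine transporter gene Slc7a11 was barely above the filter and missed 2-fold on this scale at -0.90, but its reads went from 274 to 25, a read ratio of 0.0883 (0.0561 to 0.133).

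Among the 12 enzyme genes 10 were measured and 9 fell, beside 4.85% of all genes. The alanine transaminase gene Gpt2 was lowest, with 34.6 FPKM in shCtrl and 5.86 FPKM in shSetdb1 (log2 ratio -2.38). Phgdh, the first enzyme of serine synthesis and the most abundant of the list, had 810 and 265 FPKM (-1.61). The other serine synthesis genes Psat1 and Psph had smaller ratios of -1.15 and -1.29. The mitochondrial folate enzymes Shmt2 and Mthfd2 had ratios of -1.93 and -1.76, and asparagine synthetase, Asns, had 424 and 129 FPKM (-1.71). Bcat1, a branched-chain transaminase gene, stayed just short of 2-fold at -0.97, and Cbs had 0 reads in both libraries.

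All 13 genes of the second list, for aminoacyl-tRNA synthetases and the tRNA exporter Xpot, had a ratio below 0. Of the 13, 10 fell, beside 4.85% of all genes, with a median of -1.25. Xpot was lowest at -1.74, with 45.6 FPKM in shCtrl and 12.9 FPKM in shSetdb1, followed by Lars at -1.70 and Eprs at -1.68. The 3 that stayed within 2-fold were Cars (-0.31), Sars (-0.58) and Mars (-0.71). Wars, a synthetase gene that interferon is known to induce, had 169 and 66.0 FPKM and fell with the others (-1.35).

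The list of other stress targets, was mixed. Of 13 genes 12 were measured, 3 fell and 1 rose, beside 4.85% and 6.81% of all genes, with a median of -0.69. Herpud1, a gene of endoplasmic reticulum-associated degradation, had 161 and 62.3 FPKM (log2 ratio -1.35), and the hormone genes Stc2 (-1.20) and Adm2 (-1.18) fell from low levels. Ddit4 (REDD1), an inhibitor of mTORC1 signalling that low oxygen also induces, went against the rest, with 45.3 FPKM in shCtrl and 117 FPKM in shSetdb1 (1.35). Vegfa (0.15) and Vldlr (0.08), also ATF4 targets with other inducers, had ratios near 0. Fgf21 had 18 reads in shCtrl and 1 read in shSetdb1, a read ratio of 0.0537 (0.00129 to 0.340). Gdf15, another secreted stress factor with few reads, went the other way, with 3 reads in shCtrl and 17 in shSetdb1, a read ratio of 5.48 (1.59 to 29.2), and did not reach 1 FPKM.

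Over these 3 lists, 29 of the 43 measured genes fell and 1 rose, beside 4.85% and 6.81% of all genes. Their summed reads went from 2.30% of the shCtrl library to 0.958% of the shSetdb1 library. Of the 38 genes of the lists with a promoter window, 13 (34.2%) held the composite element printed above for Chac1, Trib3 and Atf3, beside 4.51% of all genes. ATF4 targets are often recognised by that element, so this share is not independent of the choice of genes.

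**Figure D3:**
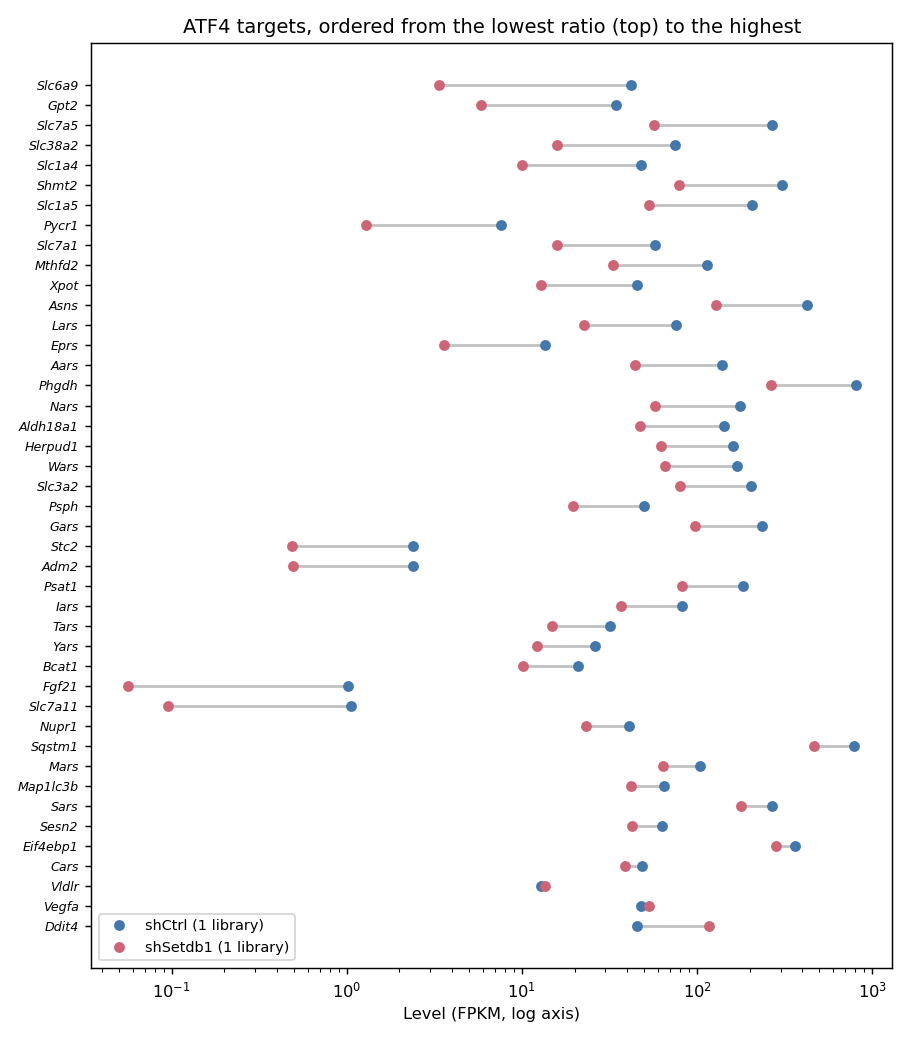
Level (FPKM, log axis) of the 43 measured ATF4 targets in the shCtrl library (blue) and the shSetdb1 library (red), 1 gene per row, ordered by log2 ratio from the lowest at the top. The red points lie to the left for 40 genes, from Slc6a9 down, and to the right for Vldlr, Vegfa and Ddit4.

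Genes linked to CHOP divided into opposite directions. Of 9 genes 8 were measured, 4 fell and 1 rose, beside 4.85% and 6.81% of all genes. RefSeq's synonyms name Car6 as DOC1, Tenm4 as Doc4 and Avil as DOC6, names given to genes found downstream of CHOP in stressed cells. All 3 fell much further than Ddit3: Car6 from 113 to 3.53 FPKM, Avil from 42.5 to 1.10 FPKM and Tenm4, a teneurin gene, from 7.86 to 0.371 FPKM (3093 and 146 reads, log2 ratio -2.69). The read ratio of Tenm4 was 0.0457 (0.0384 to 0.0539). The low ratios of Car6 and Avil were known when the list was drawn up, so these genes are a description.

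The other CHOP-linked genes did not share that size. The pro-apoptotic gene Bbc3 had 36.9 and 13.8 FPKM and fell (log2 ratio -1.36). The oxidase gene Ero1l, which helps form disulphide bonds in the endoplasmic reticulum and is also induced by low oxygen, had 27.6 and 73.5 FPKM and rose (1.38). Bcl2l11 (0.36) and the death receptor gene Tnfrsf10b (0.52) were within 2-fold on the higher side, and Bcl2, which CHOP is known to repress, was within 2-fold on this scale (-0.53), which understates changes near 1 FPKM: its reads went from 192 to 81, a read ratio of 0.408 (0.311 to 0.532). Pmaip1 had 0 reads in both libraries.

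Transcription factors that pair with ATF4, ATF3 or CHOP were mixed as well. Of 20 bZIP partner genes 17 were measured, 3 rose and 2 fell, beside 6.81% and 4.85% of all genes. Atf5, itself a translational and transcriptional target of the response, had 846 FPKM (31589 reads) in shCtrl and 213 FPKM (7965 reads) in shSetdb1 (log2 ratio -1.98), a level above that of Atf4 in both libraries. Jdp2, a repressor that binds the same sites, had 56.9 and 22.5 FPKM (-1.30). The AP-1 genes Jun (15.5 and 52.7 FPKM, 1.70), Junb (62.4 and 206 FPKM, 1.71) and Fosb (5.16 and 13.4 FPKM, 1.22) rose. Cebpg, a common partner of ATF4, stayed short of 2-fold at -0.95, and Cebpb, a partner of CHOP, was at -0.42.

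The other arms of the unfolded protein response did not follow the effectors as a group. Of 15 genes 1 fell and 1 rose, beside 4.85% and 6.81% of all genes, and the median was -0.20. The chaperone gene Hspa5 (BiP), which holds PERK inactive in unstressed cells and which ATF4 can also induce, had 190 and 88.7 FPKM (log2 ratio -1.09). Sdf2l1, a chaperone cofactor gene, had 16.7 and 39.7 FPKM (1.20). Calr (0.81), Pdia4 (0.76) and Creld2 (0.74) were higher without reaching 2-fold, while the sensors Atf6 (-0.96) and Ern1 (-0.88) were lower without reaching it.

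**Figure D4:**
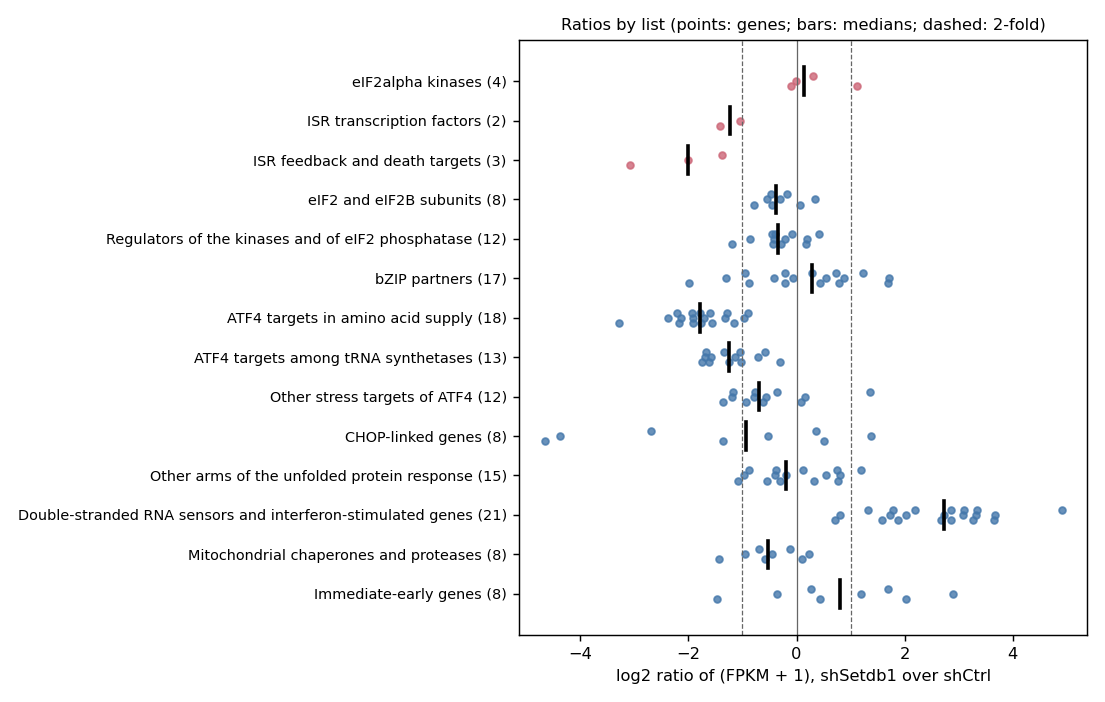
Log2 ratio of (FPKM + 1), shSetdb1 over shCtrl, for each measured gene (points) of the 3 groups of members (red) and of 11 related lists (blue), with the median of each list as a bar and the number of measured genes in parentheses. The medians run from -2.00 for the feedback and death targets and -1.78 for amino acid supply to 2.73 for the interferon-stimulated genes.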

How the data were processed

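The authors deposited FPKM values for 54680 loci beside gene model lengths, per the file headers. The submitters' processing notes name CASAVA, HISAT2, featureCounts 1.5.0-p3 and the build GRCm38, and whether counting used strand is not given in the sources used here. Columns were matched to samples by library name. All 10 members had the same start and end in GENCODE M21.

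Multiplying FPKM by gene length and dividing by the smallest step gave reads. In each library 100% of the values above 0 were whole to within 0.001, with 18731117 reads as the common depth of both libraries. The main ratios use the deposited FPKM, so they carry the 1.03 ratio of the read totals. The pseudocount was 1 FPKM, the filter 1 FPKM in at least 1 library and the threshold 2-fold. With 1 library per group no test was run and no p-value is given. Ddit3 has a further locus with no reads, which was not used. Calculations were checked on simulated reads.

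The members and the gene lists were chosen with earlier results of these data known. Every member is named. Of lists with 12 or fewer genes any may be named, and of longer lists those past 2-fold and the 3 highest and 3 lowest ratios. Outside this rule, Batf, Batf3, Cebpa, Cebpb, Cbs, Cth, Slc7a3, Fgf21, Gdf15, Creld2, Pdia6, Hsp90b1 and Syvn1 were named after their values were seen. Some genes of the interferon list are not reported by name here. Of 150 genes in the 11 related lists, 51 overlap another gene with reads. Alternatives were a pseudocount of 0.1, other filters (none, 5 FPKM), other scalings (median ratio, upper quartile, own read totals), thresholds of 1.5-fold and 4-fold, and protein-coding genes only. Promoter sequences came from RefSeq (GRCm38.p6). Software was numpy 2.4.6 and pandas 2.3.3 for tables, scipy 1.17.1 for intervals and matplotlib 3.10.9 for figures, under Python 3.11.15.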

Additional observations from a re-analysis of the deposited data

How the results depend on the processing

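Of 126 alternative values of the counts and medians, 100 lay inside the counting interval or, for counts, differed by no more than 1.5 times, 26 moved and 0 reversed. Some of the 100 could not differ. Without a filter the 2-fold counts are fixed, because a gene under 1 FPKM cannot reach 2-fold with a pseudocount of 1. A list of protein-coding genes keeps its median when other genes are left out. The unfolded protein response median, which no threshold affects, was also counted at 1.5-fold and 4-fold. Of 40 alternative values of single members, 36 stayed and 4 moved. The 5 members that fell also fell under each scaling and with the pseudocount of 0.1. A smaller pseudocount only moves ratios away from 0, and the log2 scaling factors were -0.0025, 0.0522 and 0.0481. The filters and the 1.5-fold threshold could not undo these 5 calls, since each gene was above 5 FPKM and already past 2-fold. At 4-fold 2 members fell (Trib3 and Chac1) and 0 rose, and with the filter at 5 FPKM, which Eif2ak2 does not reach, 0 rose.

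With a pseudocount of 0.1, Setdb1 was at -2.04, 1134 genes rose and 870 fell, and the medians were -1.89 for amino acid supply, -1.25 for CHOP-linked genes and 3.22 for interferon-stimulated genes. Thresholds of 1.5-fold gave 1804 genes higher and 1523 lower, and of 4-fold 116 and 56. Without a filter, which adds genes with few or no reads, the medians were -0.58 for the members, -0.53 for CHOP-linked genes and 2.67 for interferon-stimulated genes. With the filter at 5 FPKM, which leaves fewer genes, they were -1.38 for the members, 0.0448 for bZIP partners, -2.02 for CHOP-linked genes, 2.97 for interferon-stimulated genes, -0.64 for mitochondrial chaperones and 0.43 for immediate-early genes. Upper-quartile scaling and own read totals gave -1.31 and -1.30 for the synthetase list and -0.75 and -0.74 for other stress targets, since both lower every ratio.

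No paired analysis was possible because a group consisted of a single library, and for that reason no library was left out. Depth limits Atf3, Cth, Fgf21, Slc7a3, Gdf15 and Cebpa, which had between 0 and 27 reads in each library. Of these, Cebpa (0 and 22 reads), Gdf15 (3 and 17) and Atf3 (1 and 2) had more reads in shSetdb1. Batf, Batf3, Cbs and Pmaip1 had 0 reads in both libraries.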

Other observations

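Mitochondrial chaperones and proteases, which handle misfolded proteins in that organelle, had a median log2 ratio of -0.52 over 8 genes. Of these, 1 fell and none rose, beside 4.85% and 6.81% of all genes. Hspd1, the mitochondrial chaperonin HSP60, was the gene that fell, with 194 FPKM in shCtrl and 71.2 FPKM in shSetdb1 (log2 ratio -1.43). Its cofactor Hspe1, which shares a promoter region and overlaps it on the opposite strand, had 179 and 91.7 FPKM (-0.96). Lonp1, a protease gene that ATF4 can induce, was at -0.59, and Afg3l2 was highest at 0.23.

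Immediate-early genes, with which Atf3 is often grouped, were mostly higher in shSetdb1 although Atf3 had 1 and 2 reads. Of 8 genes 4 rose and 1 fell, beside 6.81% and 4.85% of all genes, with a median of 0.81. Ier3 had 68.2 FPKM in shCtrl and 512 FPKM in shSetdb1 (log2 ratio 2.89), Egr1 57.5 and 189 FPKM (1.70) and Dusp1 12.2 and 29.3 FPKM (1.20). Egr2 went from 27 to 304 reads (2.02). Myc, whose product can act with ATF4 on shared targets, was the gene that fell, with 86.5 and 30.4 FPKM (-1.48).

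The endoplasmic reticulum stress response element, a motif of ATF6 and related factors (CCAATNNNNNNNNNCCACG, searched on both strands), was in the promoter windows of 6 of 13 genes of the other arms of the unfolded protein response and of 0.137% of all genes. Genes of these arms are often recognised by that element, so this share is not independent of the choice of genes. The 6 genes that held it did not move together: Calr was at 0.81, Creld2 at 0.74, Pdia6 at 0.55, Hsp90b1 at -0.20, Syvn1 at -0.39 and Hspa5 at -1.09. None of the 10 kinase and effector genes held it.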
